A study of Mus musculus with 2 samples.

Results

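The nuclear tRNA genes of the mouse were examined for peaks of KAT8, a lysine acetyltransferase of the MYST family. A RefSeq gene table of the GRCm38.p6 assembly (mm10) held 430 tRNA genes. Of these, 403 on chromosomes 1 to 19, X and Y were kept, and 22 mitochondrial genes and 5 genes on scaffolds were set aside. A tRNA gene was counted as marked where any base of a KAT8 peak fell on the gene or within 1000 bp on either side of it. The marked genes were thus chosen by the peaks themselves, and their numbers describe 2 peak lists without a test. Of the 403 genes, 61 (15.1%) were marked by untreated and 76 (18.9%) by R848 peaks.

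The assay was CUT&Tag. It brings a transposase to an antibody-bound protein so that nearby DNA is cut and tagged. The cells were wild-type primary mouse macrophages grown from bone marrow in RPMI-1640 with 20 ng/ml recombinant M-CSF, and were profiled in bulk, so that binding in more cells and more binding per cell cannot be told apart. One library came from untreated cells and 1 from cells given 100 ng/ml R848, an agonist of the endosomal receptor TLR7, for 2 h. With 1 library a group there is no replicate error, and every difference between the lists is a difference between these libraries. The untreated list held 52001 peaks and the R848 list 44772. The lowest background solved from the authors' values was 3.37 fragments in the untreated and 2.62 in the R848 library, a ratio of 1.29. Of 11 macrophage markers, 4 had an untreated and 5 an R848 peak at a gene end, with Cebpb, Cebpa and Cd68 in both. By the same rule 28.8% and 24.5% of all protein-coding genes had one. Csf1r, Itgam, Adgre1, Lyz2 and Fcgr1 had none. Of 7 lymphoid markers 0 and 2 had one (Zap70 and Cd3d, R848 list), of 6 granulocyte and dendritic markers 1 and 0 (Siglech), and of 4 stromal markers none. Their part in the results below was not tested.

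Transfer RNAs carry amino acids to the ribosome and are made by RNA polymerase III. Its promoter at a tRNA gene lies inside the transcribed sequence, as an A box near the 5′ end and a B box further downstream. The factor TFIIIC binds both boxes and places TFIIIB, with TBP, BRF1 and BDP1, upstream of the gene, and MAF1 represses the polymerase. Mammalian tRNA genes occur in many copies, often in clusters and sometimes beside the promoters of protein-coding genes. In the gene symbols used here, the letter after n-T is the amino acid, the 3 lower-case letters are the anticodon and the last number is the copy.

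The sequences available allow the internal promoter to be shown only where a tRNA gene falls in the RefSeq promoter window of another gene, from 250 bases before to 50 after that gene's start (GRCm38.p6). Of the 403 tRNA genes, 10 overlapped such a window and 4 lay wholly in it. The examples below stand for each kind of outcome in the peak lists and are printed 5′ to 3′ on the strand that holds the B box, with up to 20 bases on either side. Capitals mark the A box and the B box. The first is arginine gene n-TRtcg5 (chr7:79466399-79466511, plus strand, upstream of Polg, the mitochondrial DNA polymerase), which had a peak in both lists. Valine gene n-TVcac9 (chr13:23446122-23446221, minus strand) had one in the untreated list only. Leucine gene n-TLaag4 (chr7:120917528-120917618, plus strand) carried only an R848 peak and lies upstream of Polr3e, which encodes a subunit of RNA polymerase III. Its window holds 71 bases of the gene, without the first bases, so only the B box is marked. Alanine gene n-TAagc16 (chr13:21222566-21222677, plus strand) and threonine gene n-TTagt9 (chr7:35234765-35234863, minus strand) had no peak.
n-TRtcg5: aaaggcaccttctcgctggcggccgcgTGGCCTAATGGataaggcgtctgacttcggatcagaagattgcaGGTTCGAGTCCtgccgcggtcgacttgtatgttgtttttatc
n-TVcac9: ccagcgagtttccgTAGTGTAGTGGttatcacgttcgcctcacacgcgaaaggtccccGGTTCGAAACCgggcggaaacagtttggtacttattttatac
n-TLaag4: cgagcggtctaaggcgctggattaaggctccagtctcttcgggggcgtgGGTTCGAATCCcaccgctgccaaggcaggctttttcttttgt
n-TAagc16: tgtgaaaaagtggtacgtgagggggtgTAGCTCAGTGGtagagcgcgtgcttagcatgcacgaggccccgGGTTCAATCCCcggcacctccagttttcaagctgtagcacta
n-TTagt9: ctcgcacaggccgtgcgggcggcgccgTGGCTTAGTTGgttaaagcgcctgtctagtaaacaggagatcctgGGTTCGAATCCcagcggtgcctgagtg
In the 4 whole genes the A box began at base 8 of the gene and the B box at base 51 to 53. These letters are present in n-TAagc16 and n-TTagt9, which had no peak, as they are in n-TRtcg5. The B box, searched as GGTTCNANNCC on both strands, was found in 7 of the 10 windows that overlap a tRNA gene and in 261 of all 32851 promoter windows (0.794%). The A box motif alone was found in 22.4% of all windows. An A box followed on the same strand by a B box, 20 to 80 bases from start to start, was found in 13 windows (0.0396%), 4 of them among the 10. A match describes the letters and is not a measured binding site.

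In the untreated list 61 of 403 tRNA genes were marked (15.1%, 95% exact Clopper-Pearson interval 11.8 to 19%), and in the R848 list 76 (18.9%, 15.2 to 23%). These intervals cover counting error only, and neighbouring genes that share a peak are not independent. Among 4433 other genes of at most 200 bp, the same window held an untreated peak for 9.68% and an R848 peak for 8.64%. Genome tiles of 2072 bp, the median width of a tRNA window, held one in 4.42% and 3.86%. The share of tRNA genes was thus above that of other short genes and of tiles in each list. It was below the share of protein-coding genes with a peak near (within 1000 bp of) either end, 28.8% and 24.5%. That rule searches both ends of a gene and so more sequence than a tRNA window. Within 1000 bp of single protein-coding transcript starts the shares were 27.8% and 23.3%. Peaks in both lists were found at 43 tRNA genes (10.7%), against 4.02% of the other short genes. At a few of the 43 the peaks of the lists did not overlap, so a gene marked in both lists is not always a shared site. Untreated peaks alone marked 18 tRNA genes (4.47%, against 5.66%), and R848 peaks alone marked 33 (8.19%, against 4.62%). The remaining 309 genes had no peak within 1000 bp in either list.

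Many of the marked genes are neighbours that share a peak. The 61 untreated genes rested on 46 distinct peaks, of which 14 marked several genes, and the 76 R848 genes on 56 peaks, of which 21 marked several. One peak marked at most 4 genes. Joined into clusters with at most 10000 bp between neighbours, the 403 genes formed 174 clusters, 110 of them single genes. The untreated list marked 32 clusters (18.4%) and the R848 list 41 (23.6%). Of these, 25 were marked in both lists, 7 by untreated peaks alone and 16 by R848 peaks alone.

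**Figure D1:**
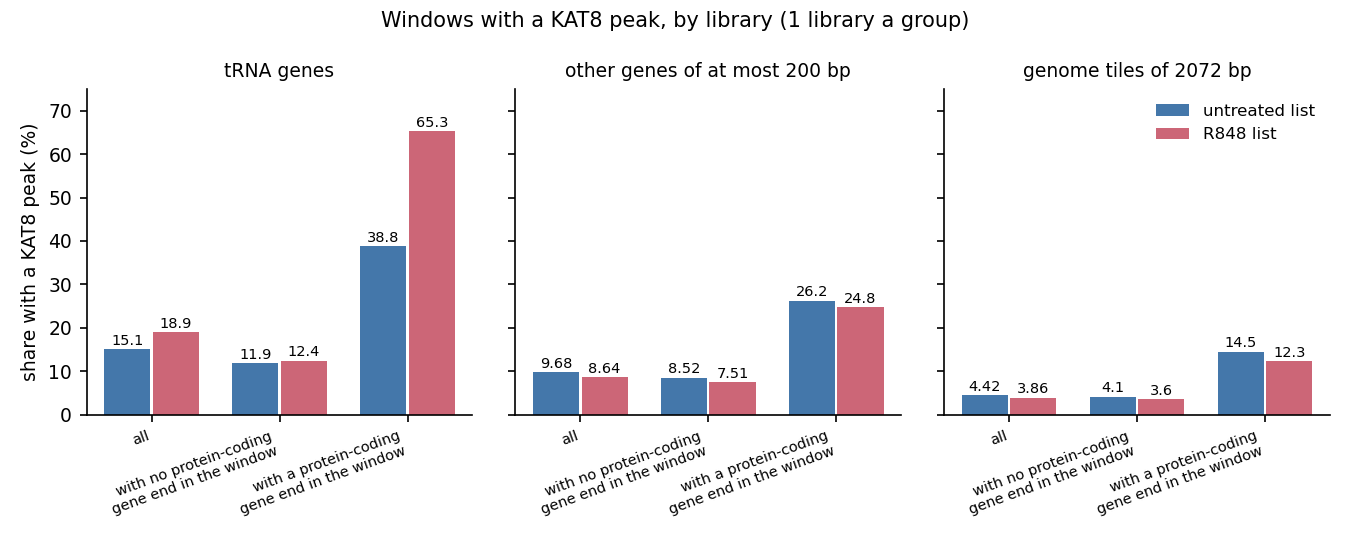
Share of windows with at least 1 KAT8 peak (vertical axis, percent; 0-based bars) for tRNA genes, other genes of at most 200 bp and genome tiles, in the untreated (blue) and R848 (red) lists, all together and split by whether an end of a protein-coding gene lies in the window. Bars are single libraries with no error bar. The tRNA bars are the highest in each split, and the gap between the lists is widest for tRNA genes beside a protein-coding gene end, at 38.8% and 65.3%. Each gene is counted, also where neighbours share a peak.

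The marked tRNA genes lay often beside protein-coding genes. An end of a protein-coding gene fell in the window of 49 tRNA genes in 37 clusters. Of these, 19 had an untreated peak (38.8%) and 32 an R848 peak (65.3%), and all 19 were marked in both. Other short genes with such an end in the window (290 genes) were marked in 26.2% and 24.8%. The 13 tRNA genes beside a gene end that were marked in 1 list only were all in the R848 list (26.5%), where other short genes had 5.86% with R848 peaks alone and 7.24% with untreated peaks alone. Several of these 13 are neighbours that share a peak, as beside Mrpl58, so they are not separate loci. They include n-TVcac7, whose R848 peak overlaps an untreated peak just outside the window. Among the 354 tRNA genes with no such end in the window, 42 (11.9%) and 44 (12.4%) were marked, against 8.52% and 7.51% of the other short genes. There the counts in 1 list only were 18 for untreated and 20 for R848. Away from protein-coding gene ends the lists thus marked nearly equal numbers of tRNA genes.

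Another grouping used transcript starts, which the promoter sequences give for 17491 of the 21839 protein-coding genes. It is not a split of the 49 genes with a gene end. Some tRNA genes, such as n-TRtcg5, have a start but no gene end in the window and are among the 354. A start lay in the window of 32 tRNA genes, of which 14 (43.8%) were marked in the untreated and 19 (59.4%) in the R848 list. The 135 other short genes beside a start were marked in 45.2% and 42.2%, so the untreated share of the tRNA genes was close to that of other short genes at such starts. For 21 tRNA genes the window held a gene end but no start in the table, and 6 and 14 of these were marked.

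**Figure D2:**
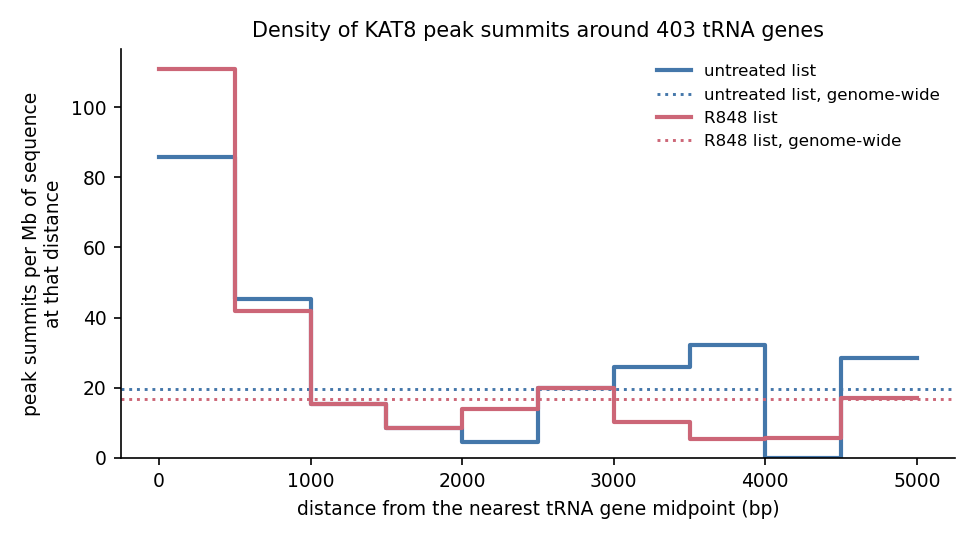
Density of KAT8 peak summits (vertical axis, summits per Mb of sequence) against distance from the midpoint of the nearest of 403 tRNA genes (horizontal axis, bp, in bins of 500 bp) for the untreated (blue) and R848 (red) lists, with dotted lines at the genome-wide density. Density was 85.8 and 111 per Mb in the nearest 500 bp and ranged from 0 to 32.2 per Mb in the bins beyond 1000 bp, on either side of the dotted lines.

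Summits stood close to the genes rather than evenly across the window. Within 500 bp of a tRNA gene midpoint there were 31 untreated summits, 85.8 per Mb of sequence, and 40 R848 summits, 111 per Mb. Over the genome the densities were 19.5 and 16.8 per Mb. From 500 to 1000 bp the densities were 45.4 and 41.9 per Mb, and from 1000 to 1500 bp 15.4 in each list. Of the nearest summits, 22 of 31 and 20 of 40 were more than 1000 bp from any end of a protein-coding gene. Inside a tRNA gene there were 3 untreated and 2 R848 summits, and 23 and 24 were within 250 bp of one. The genes have a median length of 72 bp and so take up little of the window. No density was computed for them. Whole tRNA genes lay under a peak in 11 (untreated) and 15 (R848) cases. Reads from near-identical tRNA copies can match several places, and how the authors placed them is not given in the sources used here.

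The peaks at tRNA genes stood somewhat above the middle of their lists, with a median percentile of fold of 69.1 (untreated) and 65.4 (R848). The authors' fold over background had a median of 3.13 in the untreated list (range 2.17 to 8.24; all peaks 2.75) and 3.32 in the R848 list (2.10 to 8.54; all peaks 3.04). The pileup, the number of fragments over the summit, had a median of 15 and 13, against 12 and 10 for all peaks. A q of at most 0.05 was reached by 29 of 46 untreated peaks (63.0%; all peaks 36.3%) and 35 of 56 R848 peaks (62.5%; all peaks 41.1%). An overlapping peak in the other list was present for 30 of the 46 (65.2%; all peaks 31.0%) and 31 of the 56 (55.4%; all peaks 35.8%). The summit lay near a protein-coding gene, within 1000 bp of either end, for 14 untreated (30.4%; all peaks 10.8%) and 26 R848 peaks (46.4%; all peaks 10.6%). All 14 of these untreated peaks overlapped an R848 peak, and 16 of the 26 R848 peaks overlapped an untreated peak. Peaks of tRNA genes were thus more often shared and more often beside genes than the average peak of their list.

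**Figure D3:**
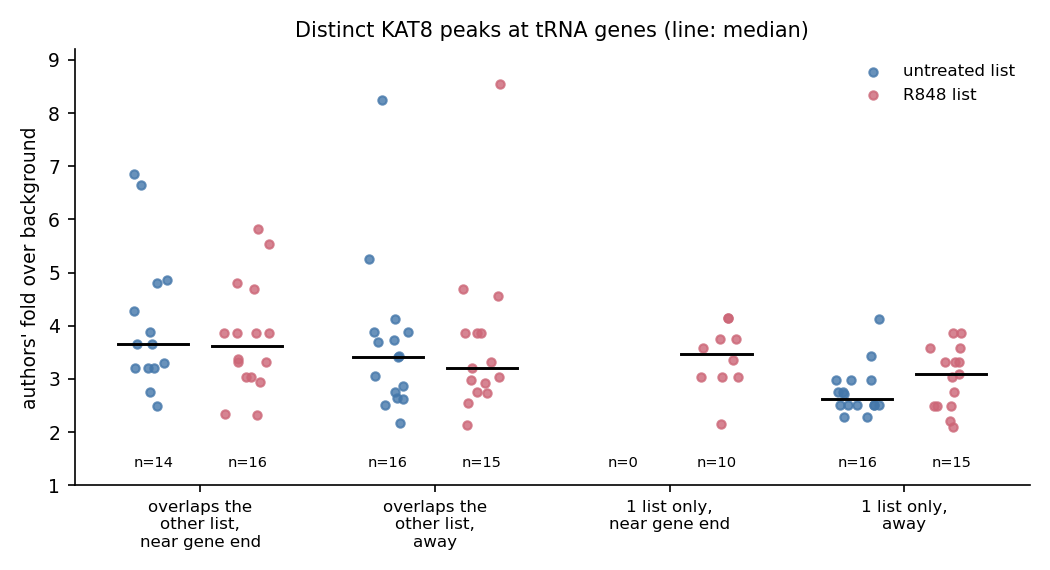
Authors' fold over background (vertical axis, linear) of each distinct KAT8 peak at a tRNA gene, as points, by whether it overlaps a peak of the other list and whether its summit lies near a protein-coding gene, at most 1000 bp from an end (horizontal axis; untreated blue, R848 red, with the number of peaks below and the median as a line). No untreated peak falls in the class of 1 list only near a gene end, where the R848 list has 10, and the highest point of each list, 8.24 and 8.54, is the same locus on chromosome 16.

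The strongest locus in both lists was threonine gene n-TTcgt5 (chr16:13437323-13437394). Its untreated peak spanned chr16:13437048-13438009 with a fold of 8.24 and a pileup of 35, and its R848 peak had a fold of 8.54 and a pileup of 33. The gene lay wholly under both peaks, and the nearest end of a protein-coding gene, Mrtfb, a coactivator of serum response factor, was 19829 bp away. It was thus the highest fold at a tRNA gene in both lists and stood apart from protein-coding genes.

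Several of the next peaks sat at starts of protein-coding genes. Cysteine gene n-TCgca51 lay beside Lasp1, which encodes an actin-binding protein, with folds of 6.86 (pileup 30) untreated and 3.37 (pileup 13) in the R848 list. Alanine gene n-TAagc9 lay beside Ppp6r3, a regulatory subunit of protein phosphatase 6, with folds of 6.64 and 5.53. Glutamate gene n-TEttc4 lay beside Wbp4, a splicing factor gene, with folds of 4.87 and 5.82 and a pileup of 21 in each library. Of these, n-TAagc9 and n-TEttc4 were high in both lists and n-TCgca51 in the untreated list, and at each the summit was within 1000 bp of the protein-coding gene's end. Arginine gene n-TRacg2 beside Sacm1l, a phosphoinositide phosphatase gene, had 4.81 and 3.04. Methionine gene n-TMcat9 beside the histone H4 gene H4c8 had 4.28 and 3.87, and n-TMcat17 beside Fbxo31, an F-box protein gene, 3.89 and 4.81. At none of these could the tRNA gene's share of the peak be told apart from that of its neighbour.

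Other strong peaks lay away from protein-coding ends. Valine gene n-TVaac5 on chromosome 13 had folds of 5.26 and 3.87, with the summit 1070 bp from the gene in the untreated list. Arginine gene n-TRtct2 had 4.12 and 2.76. Lysine gene n-TKctt9 had 3.89 and 4.70, with the nearest protein-coding end 359131 bp from the summit. A peak that marks the lysine genes n-TKctt12 and n-TKctt13 had 3.74 and 4.56. Arginine gene n-TRcct1 near Fmc1 had 3.89 and 3.87, with summits 1277 and 1256 bp from an end of Fmc1. It also had a weaker peak in each list, of fold 2.75 and 3.32, with the summit 14 and 217 bp from an end of Fmc1. Each of these loci had overlapping peaks in the lists. Cysteine genes n-TCgca54 and n-TCgca55 had peaks of both kinds. They shared an R848 peak of fold 4.14, with its summit 813 bp from an end of Arl5c, and an R848 peak of fold 3.87. Neither of these overlapped an untreated peak. Their untreated peak had a fold of 2.52 and overlapped another R848 peak, of fold 2.99, that marks n-TCgca55.

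Across the 31 pairs of overlapping peaks, neither library was uniformly the higher. Pileups were divided by the lowest background of their library to set them side by side. This scaled pileup was higher in the untreated library in 14 pairs and in the R848 library in 17, with medians of 5.34 and 4.96. The authors' fold over the local background was the higher in the untreated list in 18 pairs and in the R848 list in 13. The paired summits were a median of 106 bp apart.

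The 33 genes marked in the R848 list only rested on 21 peaks with folds of 2.10 to 4.70 and pileups of 7 to 21. Valine gene n-TVcac7 beside Trim41, a ubiquitin ligase gene, came first with a fold of 4.70 and a pileup of 16. This peak overlapped an untreated peak of fold 4.35 that lay 1120 bp from the gene, just outside the window, so at this gene the window and not the presence of a peak sets the lists apart. Arginine genes n-TRcct3, n-TRcct5 and n-TRtcg4 shared a peak of fold 4.14 (pileup 14) at Mrpl58, which encodes a mitochondrial peptidyl-tRNA hydrolase. On chromosome 19, n-TLtaa4, n-TRtct1, n-TVtac1 and n-TVtac2 shared a strongest peak of fold 3.87 (pileup 13) away from protein-coding ends. On chromosome 11, n-TRtct4, n-TLtag3, n-TQctg6 and n-TKctt27 shared a strongest peak of fold 3.76 (pileup 13) between Hes7 and Aloxe3. The gene n-TLaag4 shown above had a fold of 3.04 and a pileup of 10. Thus most of the top genes here come as neighbours that share a peak.

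The 18 genes marked in the untreated list only rested on 13 peaks with folds of 2.28 to 4.12 and pileups of 9 to 17, and none had a protein-coding gene end in its window. Threonine gene n-TTcgt3 on chromosome 11 had a fold of 4.12 and a pileup of 17. Tryptophan gene n-TWcca7 had 3.43, and an R848 peak lay 1100 bp from it, just outside the window. Unlike at n-TVcac7, that R848 peak did not overlap the untreated peak. Isoleucine gene n-TIaat6 and cysteine gene n-TCgca25 had 2.98. Tyrosine genes n-TYgta1 and n-TYgta2, arginine gene n-TRacg3 and alanine gene n-TAagc14 shared 2 peaks of fold 2.75 on chromosome 3. The other 10 genes, n-TVcac9 among them, had folds of 2.28 to 2.52. Only n-TTcgt3 and n-TWcca7 had a q of at most 0.05.

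A stricter reading asked for a q of at most 0.05 in 1 list and no peak in the same window in the other. It was met by 2 tRNA genes in the untreated direction (0.496%) and 23 in the R848 direction (5.71%), the latter under 11 distinct peaks. Other short genes had 1.67% and 1.2%, protein-coding gene ends 3.66% and 2.47%, and genome tiles 0.691% and 0.646%. In these 3 backgrounds the untreated share was the higher, and among tRNA genes the R848 share was. The R848 count includes n-TVcac7, whose peak overlaps the untreated peak just outside the window. The tRNA count rests on few peaks and on 1 library a group.

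The window had soft edges at a few genes. In the untreated list the members nearest to the limit on the inside were n-TLcag8 at 786 bp, n-TVaac5 at 794 bp and n-TCgca54 at 959 bp from the nearest peak, and on the outside n-TAagc7 at 1101 bp, n-TVcac7 at 1120 bp and n-TCgca3 at 1397 bp. In the R848 list they were n-TVaac5 at 819 bp, n-TVcac7 at 895 bp and n-TCgca23 at 964 bp inside, and n-TWcca7 at 1100 bp, n-TAagc7 at 1126 bp and n-TGgcc13 at 1475 bp outside. Over all 403 genes the median distance to the nearest peak was 14747 bp and 14618 bp. The counts still changed with the window. A window of 250 bp marked 42 and 53 genes and one of 3000 bp marked 77 and 98, against 61 and 76 at 1000 bp.

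**Figure D4:**
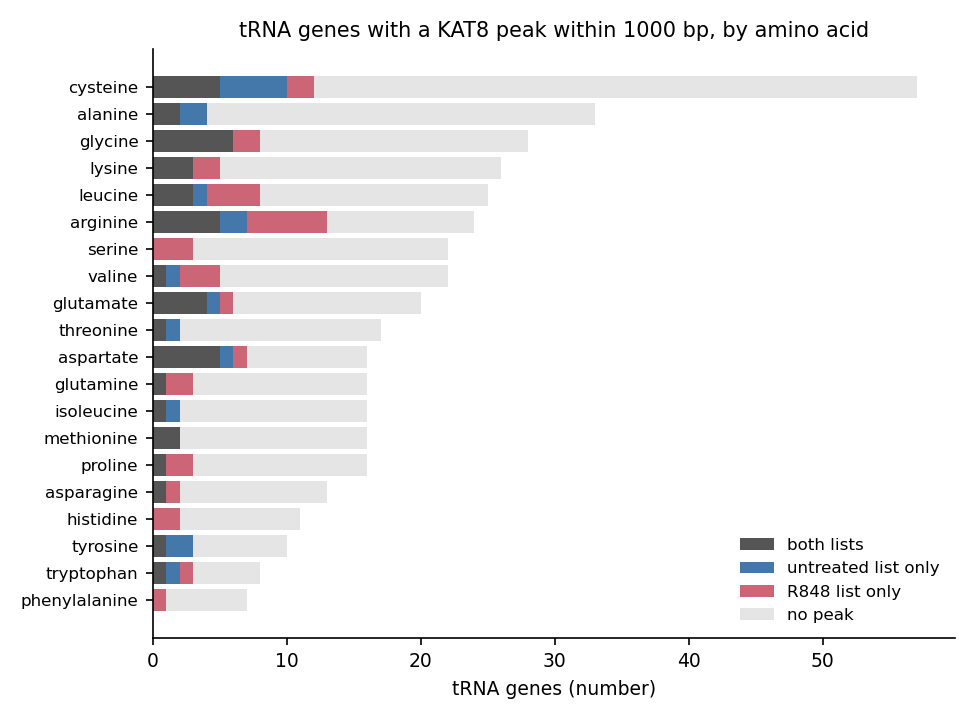
Number of tRNA genes (horizontal axis) of each of 20 amino acids with a KAT8 peak within 1000 bp in both lists (grey), the untreated list only (blue), the R848 list only (red) or neither (light). Cysteine has the most genes, 57, and arginine the longest coloured bar, with 7 untreated and 11 R848 genes of 24.

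By amino acid, all 20 had at least 1 marked gene. Of the 24 arginine genes, which lie in 20 clusters, 7 were marked by untreated and 11 by R848 peaks. Of these 11, 3 shared 1 peak at Mrpl58. Aspartate genes were marked in 6 of 16 in each list, and glycine genes in 6 and 8 of 28, with many of both in the chromosome 1 array described next. Cysteine, the most numerous with 57 genes, all of anticodon GCA, had 10 and 7. Alanine had 4 and 2 of 33. Serine had 0 and 3 of 22, histidine 0 and 2 of 11 and phenylalanine 0 and 1 of 7. The 11 alanine genes of anticodon TGC had no peak in either list. Most amino acids had a few marked genes, and with counts this small and shared peaks no order among them is read.

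Of the 6 clusters of 10 or more genes, 1 held most of the marks. It is an array of 15 genes on chromosome 1 (chr1:171064164-171081946) in which glutamate, glycine, aspartate, leucine and glycine genes follow each other 3 times, the later copies beginning 7628 and 15242 bp after the first. In the untreated list 13 of the 15 genes were marked by 5 peaks, and in the R848 list 14 by 6 peaks. Glycine gene n-TGgcc13 had no peak, and n-TGgcc14 had only an R848 peak. In the later copies no untreated peak reached a tRNA gene, the nearest being 75 bp from n-TGtcc5 and 154 bp from n-TGtcc4. There the only gene with an R848 peak over it was n-TGgcc14. Pileups were 31 to 42 in the untreated and 21 to 30 in the R848 library, among the highest at tRNA genes. The folds were only 2.17 to 3.06 and 2.10 to 3.20, and the local background used by the authors was high there, 11.1 to 14.8 and 8.68 to 11.2 fragments against the lowest background of 3.37 and 2.62. The first copy carried a wide peak in each list, 1604 and 1659 bp, over its glutamate and first glycine gene and into its aspartate gene. The 3 copies are alike in gene order and spacing, so reads could have been divided among them by the authors' alignment, and values of single copies are uncertain. Leaving the array out gave 48 untreated and 62 R848 genes.

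**Figure D5:**
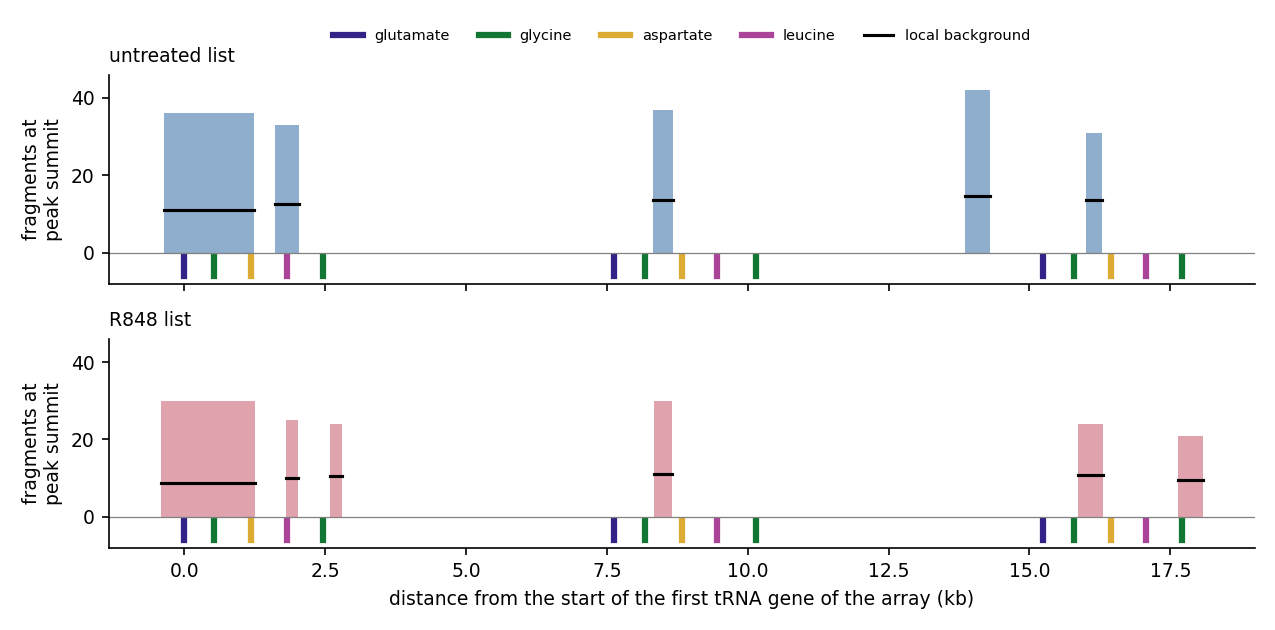
The chromosome 1 array of 15 tRNA genes (ticks, coloured by amino acid) by distance from its first gene (horizontal axis, kb), with each KAT8 peak as a box as wide as the peak and as high as its summit pileup (vertical axis, fragments) and its local background as a black line, for the untreated (top) and R848 (bottom) lists. Peaks of 31 to 42 fragments (untreated) and 21 to 30 (R848) lie over or between the genes of the array. In the later copies no untreated peak reaches a tRNA gene.

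The neighbouring cluster with n-TLcag9, n-TDgtc5, n-TGtcc3 and n-TEctc6 was marked in the R848 list only, by 1 peak of fold 3.32 and pileup 11. The other large clusters had 0 to 6 marked genes in a list. On chromosome 6, the cysteine cluster of 22 genes had 6 untreated and 1 R848 gene, and that of 10 genes had 0 and 1. In the whole chromosome 6 stretch of 49 cysteine genes the highest pileup was 12, while the 8 cysteine genes elsewhere were marked in 4 and 5 cases. On chromosome 13, clusters of 10, 15 and 14 genes had no mark, no mark and 2 untreated marks. This stretch of chromosome 13 (chr13:21160785-23530419), which also holds histone genes, has 104 tRNA genes in 24 clusters, and 4 of them (3.85%) were marked in either list, against 23.3% of all tRNA genes. Only 1 of the 104 had a protein-coding gene end in its window. By size, single genes were marked in 17.3% and 20.0%, genes in clusters of 2 to 4 in 13.5% and 18.3%, of 5 to 9 in 6.80% and 18.4%, and of 10 or more in 24.4% and 18.6%.

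The genes that make and process tRNA were looked at as protein-coding genes, by peaks within 1000 bp of either end, for which 28.8% and 24.5% of all protein-coding genes were marked. Of 35 genes for RNA polymerase III and its factors, 14 were marked in each list (40.0%), 9 in both and 5 each by untreated or R848 peaks alone. Polr2h, a subunit shared by the nuclear polymerases, had folds of 3.62 (pileup 15) and 6.63 (pileup 23). Brf1, the TFIIIB subunit, had 5.79 in each list, with pileups of 26 and 21. Gtf3c6 of TFIIIC had 4.35 and 4.97, and Maf1, the repressor, 4.35 and 3.59. Snapc2, Polr3k, Gtf3c4 and Polr1c were marked in the untreated list only (folds 3.66, 3.43, 2.98 and 2.74). Snapc5, Polr3e and Gtf3a were marked in the R848 list only (3.32, 3.04 and 3.04). The Polr3e peak is the one beside n-TLaag4. No member marked in 1 list only had a fold above 3.66.

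Of 36 genes for tRNA processing, modification and export, 13 (36.1%) and 11 (30.6%) were marked, 9 of them in both lists. Pop7, a protein of RNase P, had folds of 6.87 and 6.35. Elac1, a tRNA 3′ processing enzyme, had 6.41 and 4.42, and the cytosine methyltransferase Nsun2 4.35 and 6.36. Adat3, of the tRNA adenosine deaminase, had 6.22 and 4.30. Clp1, Dkc1, Tsen54 and Pus1 were marked in the untreated list only (3.66, 3.43, 3.20 and 2.75), while Mettl1 and Pus7 had R848 peaks alone (3.01 and 2.76).

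Other RNA genes of polymerase III were compared with the window used for tRNA genes. Of 10 named genes, 5 had untreated and 4 had R848 peaks. Rn7s1 and Rn7s2, for the RNA of the signal recognition particle, had folds of 5.26 and 5.53, and of 5.04 and 3.87. Rmrp, for the RNA of RNase MRP, had 2.75 and 3.32. Rpph1, for the RNA of RNase P, had 3.20 and Bc1 2.98 with no R848 peak, and Rnu6, for U6, had 2.83 with no untreated peak. The nearest end of a protein-coding gene was 109 bp from Rn7s1 (Rps29), 450 bp from Rpph1 (Parp2), 555 bp from Rmrp (Ccdc107) and 630 bp from Bc1 (LTO1). The windows of these genes thus take in a protein-coding gene end as well. For Rn7s2 and Rnu6 it was 3982 and 54810 bp away. Of 71 genes with 5S ribosomal RNA symbols, 11 and 19 were marked. Except for n-R5s93 (untreated list), all of these lay in a single stretch of chromosome 8 (chr8:123538784-123622046). Folds there were only 1.85 to 2.92, at pileups of 19 to 37. Neighbours such as n-R5s136 and Rn5s-ps1 had the same fold and pileup, so these counts are not of separate loci. How reads were placed among such copies is not given. In the same window 9.68% and 8.64% of other short genes and 15.1% and 18.9% of tRNA genes were marked. Other short genes with a protein-coding gene end in the window were marked in 26.2% and 24.8%. Some of the named genes, such as Rmrp, are longer than the 200 bp limit of these short genes.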

How the data were processed

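KAT8 CUT&Tag of untreated and R848-treated mouse macrophages was deposited as 1 narrowPeak list per library, called per sample, and the groups follow the treatment label. Per the submitters' processing notes, the tools were Bowtie 0.12.8, MACS2 2.2.7.1 and DiffBind, on mm10. The placing of multi-mapping reads, duplicate removal and any control are not given in sources used here. Each deposited peak has its score, its fold enrichment (a ratio), a p-value and a q-value as −log10, and a summit offset, all from the authors. Deposited −log10 p values began at 2.01, so weak peaks are included and the absence of a peak can mean that it missed this threshold. A pileup and background were solved from each fold, taken as (pileup + 1) / (background + 1), and its Poisson p. Pileups came out whole for 100% of peaks, to within 0.1% of −log10 p. Total reads were not used here, so depth is known only from these backgrounds.

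Gene positions and promoter sequences came from RefSeq tables of GRCm38.p6. No genome sequence was used, so other tRNA sequences are not shown. Of the listed genes, 35 of 35 and 36 of 36 were found. Peaks were assigned by at least 1 bp of overlap, with Python 3.11.15, pandas 2.3.3 and SciPy 1.17.1. bedtools 2.31.1 gave the same 61 and 76 genes, and the code was tested on simulated data. No test was made with 1 library a group.

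The genes named are those under the 10 peaks of highest fold per list, all clusters of 10 or more genes, up to 10 genes per direction marked in 1 list (ties included), the 3 on each side of the window's limit, up to 4 per class from the 2 lists of polymerase III and processing genes, and the other polymerase III RNA genes with a peak. Genes with a printed sequence were added because a sequence was at hand. An item that this rule selects is not reported here. Members and lists were chosen with earlier results of these data known. Alternatives changed the window, the peak threshold, list length, cluster gap and the genes kept.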

Additional observations from a re-analysis of the deposited data

How the results depend on the processing

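Of 90 values under other settings, 58 stayed within 1.5 times the reported count and 32 moved further. The R848 list marked more tRNA genes than the untreated list in 7 of 9 settings. Values below are given for untreated and then R848, where both moved.

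With the gene itself as the window, 18 and 25 genes were marked, 11 in both lists, 7 in the untreated and 14 in the R848 list only, under 16 and 22 peaks in 14 and 19 clusters. A window of 250 bp left 27 genes in both. With q up to 0.05 in each list, 40 untreated genes, 10 in the untreated list only, and 29 and 35 peaks were left. With −log10 q of at least 5, 11 and 6 genes were left, 3 in both, 8 and 3 in 1 list only, under 8 and 5 peaks in 7 and 5 clusters, and here the untreated count was the higher. Setting q up to 0.05 against any peak of the other list left 2 genes in the untreated list only. Among the 336 tRNA genes with no protein-coding gene end within 1000 bp of their window, 38 and 38 were marked, 20 in both and 18 in the R848 list only, under 28 and 23 peaks in 17 and 18 clusters. Each of these settings keeps fewer peaks or genes by construction.

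Counting summits only, lists of equal length, a window of 3000 bp and cluster gaps of 5000 or 50000 bp moved no count by over 1.5 times. The same holds for 2 settings added after seeing the data, leaving out the chromosome 1 array and counting as presence a peak beyond the window that overlaps the first. No paired analysis was possible because each group has 1 library with no replicate number. Depth limits the weak peaks. The lowest pileup at a tRNA gene was 9 and 7 fragments, so a peak in 1 list only can differ from the other list by a few fragments.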
